A study of Mus musculus with 4 samples.

Results

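The surrogate light chain and B-cell receptor genes examined here are Vpreb1, Vpreb3, Igll1, Cd79a, Cd79b, Cd22 and Blnk. They were taken as every non-control probe whose RefSeq transcript belongs to one of these symbols, which gave 7 probes for the 7 genes, out of 55681 probes and 20883 genes with a symbol on the array. Each gene was read by 1 probe in 1 spot per array. The genes were chosen by their measured signal on these same arrays, among it the lower signal of Vpreb1, Vpreb3 and Igll1 in native Sf3b1+/- cells, so all differences below are descriptions and carry no test.

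RNA came from LSK cells, a sorted marrow population without lineage markers but with c-Kit and Sca-1, in which stem cells and early progenitors of the blood are found. All groups were of strain C57BL/6. The native groups were wild type and Sf3b1+/- mice aged 20 weeks. For the transplanted groups, whole marrow of either genotype (CD45.2+) was given to lethally irradiated CD45.1+ hosts, and donor LSK cells were sorted 9 months later, a step meant by the study to separate effects of the cells from those of their surroundings. Sf3b1 encodes a core protein of the U2 splicing particle, and heterozygotes were used because null embryos die before implantation. Each group has 1 array. The series design gives n = 4 for native mice and n = 5 for recipients, and does not tell whether an array holds RNA of a single mouse or of a pool.

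During B-cell development the products of Vpreb1 and Igll1 pair to form the surrogate light chain, which stands in for a light chain that has not yet been made and lets a new immunoglobulin heavy chain reach the surface as the pre-B-cell receptor. Vpreb3 encodes a related protein of the secretory pathway in B-lineage cells. Cd79a and Cd79b encode Ig-alpha and Ig-beta, the signalling chains shared by the pre-B-cell receptor and the mature receptor. Blnk encodes the adaptor that links the kinase Syk to phospholipase C-gamma 2 and Btk, and Cd22 encodes a sialic-acid-binding co-receptor that dampens the signal.

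All 10 LSK marker genes looked for, among them Kit, Ly6a (Sca-1) and Cd34, were well above background on all 4 arrays. The probe of Sf3b1 itself read 75.4% of the wild-type signal in native heterozygotes and 92.8% in transplanted ones, log2 differences of -0.41 and -0.11. Its position relative to the deleted part of the gene is unknown here. When arrays are scaled to added spike-in RNAs, the median of all genes shifts up by 0.25 and 0.62 in these comparisons. The lower transplanted value of Sf3b1 thus depends on the scaling. The share of spots well above background, as called by the scanner software, ran from 47.7% to 51.5%. Signals below are scaled to the 75th percentile of the detected probes and given in the units of the wild-type native array. The ± beside a signal is the scanner software's error for that spot, which covers the measurement on the array and not the spread between mice. Across the 26 member values well above background, of 28, that error was 0.14 to 0.31 on the log2 scale.

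The upstream sequences of the members that were lower together are given first, since stretches of this kind take part in controlling transcription. Whether these windows act in LSK cells was not tested. RefSeq promoter windows on GRCm38.p6 were matched for 6 of the 7 members, Cd79b being the one without an entry. The 250 bases before the annotated start of Vpreb1, Igll1, Vpreb3 and Blnk are printed 5′ to 3′ on the gene's strand. Capitals mark the octamer bound by POU factors (ATTTGCAT), a core recognised by Ebf1 (CCCNNGGG) and the E-boxes CAGCTG and CAGGTG, each searched on both strands.
Vpreb1, chr16:16869256-16869505, strand minus: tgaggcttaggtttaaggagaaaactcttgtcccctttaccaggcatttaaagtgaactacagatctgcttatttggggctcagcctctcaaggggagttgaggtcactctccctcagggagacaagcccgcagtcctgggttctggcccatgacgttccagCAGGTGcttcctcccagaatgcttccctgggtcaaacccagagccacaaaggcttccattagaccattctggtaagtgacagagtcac
Igll1, chr16:16863986-16864235, strand minus: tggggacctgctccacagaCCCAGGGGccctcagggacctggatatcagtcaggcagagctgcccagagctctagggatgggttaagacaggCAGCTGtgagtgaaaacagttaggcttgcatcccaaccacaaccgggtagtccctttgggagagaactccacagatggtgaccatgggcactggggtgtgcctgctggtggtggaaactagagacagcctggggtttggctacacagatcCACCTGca
Vpreb3, chr10:75948050-75948299, strand plus: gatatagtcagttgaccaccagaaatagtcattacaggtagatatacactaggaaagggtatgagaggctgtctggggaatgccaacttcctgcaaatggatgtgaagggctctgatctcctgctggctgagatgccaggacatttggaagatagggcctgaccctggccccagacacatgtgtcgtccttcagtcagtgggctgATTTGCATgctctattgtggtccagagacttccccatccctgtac
Blnk, chr19:40994222-40994471, strand minus: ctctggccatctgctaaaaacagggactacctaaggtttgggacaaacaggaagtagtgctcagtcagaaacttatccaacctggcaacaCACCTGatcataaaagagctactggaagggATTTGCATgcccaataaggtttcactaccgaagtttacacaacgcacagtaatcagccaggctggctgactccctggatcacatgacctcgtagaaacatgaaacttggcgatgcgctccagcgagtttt

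The octamer stood in the windows of Vpreb3 (bases -45 to -38 from the start) and Blnk (-130 to -123), and in 1.6% of all 32851 windows of this length. The Ebf1 core stood in those of Igll1 (-231 to -224) and Cd22 (-48 to -41) and in 11.8% of all windows. CAGGTG, read as CACCTG on the other strand, was present for Vpreb1 (-88 to -83), Igll1 (-8 to -3), Blnk (-160 to -155), Cd79a and Cd22, against 17.2% of all windows, and CAGCTG for Igll1 alone among the members (-158 to -153), against 13.0%. The letters TGGGAA, a core bound by Ikaros, were found for Cd22 only and in 21.6% of all windows. No overlap between marked motifs occurred, and no motif was held by all of Vpreb1, Vpreb3 and Igll1. A match is a description of the letters and does not show that a factor binds there.

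Vpreb1 (NM_016982) and Igll1 (NM_001190325) lie next to each other on chromosome 16, with no other gene read by the array between them. Their nearest neighbours did not share their pattern: Top3b, on the Vpreb1 side, differed by 0.26 (log2, Sf3b1+/- minus wild type) in native and 0.22 in transplanted cells and by -0.23 between transplanted and native wild-type cells, and Rpl31-ps12, on the Igll1 side, by -0.22, -0.47 and 0.15. Next to Vpreb3 on chromosome 10, Chchd10 stood at -0.67, 0.11 and -1.16. Next to Blnk on chromosome 19, Dntt, which encodes the template-free polymerase of antigen receptor joining, stood at -0.04, -0.99 and -0.13.

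The surrogate light chain genes were high in native wild-type LSK cells and lower in each of the other groups, in the order native Sf3b1+/-, transplanted wild type, transplanted Sf3b1+/-. Vpreb1 gave a signal of 8189 ± 819 in wild-type native cells, 1824 ± 182 in Sf3b1+/- native cells, 771 ± 77.2 in wild-type transplanted cells and 504 ± 50.5 in Sf3b1+/- transplanted cells. Vpreb3 (NM_009514) gave 6112 ± 611, 1474 ± 147, 178 ± 18.2 and 88.8 ± 9.52 in the same order. Igll1 gave 979 ± 98.0, 228 ± 23.1, 35.2 ± 5.29 and 18.1 ± 3.69. All 12 of these values were called well above background. The unscaled Igll1 signals on the transplanted arrays, 38.8 and 29.4 units after background subtraction, were below the arrays' median local background, 44 and 42. Neighbouring groups in this order were further apart than the scanner error in all 3 genes, and 1 array per group leaves the spread between mice unmeasured. All 7 members were highest on the wild-type native array, as were 19.6% of the 13030 compared genes, those well above background on at least 2 arrays. The same falling order over the 4 arrays was seen in 5 of the 7 members (the exceptions are Cd79a and Cd79b) and in 7.01% of the compared genes. With spike-in scaling it held for Vpreb3 and Igll1 only, 2 members, and in 0.153% of genes, and 5 members (not Cd79b and Cd22) were highest on the wild-type native array, against 0.675%. In RNA of a whole sorted population, fewer cells of a type and less RNA per cell cannot be told apart.

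**Figure D1:**
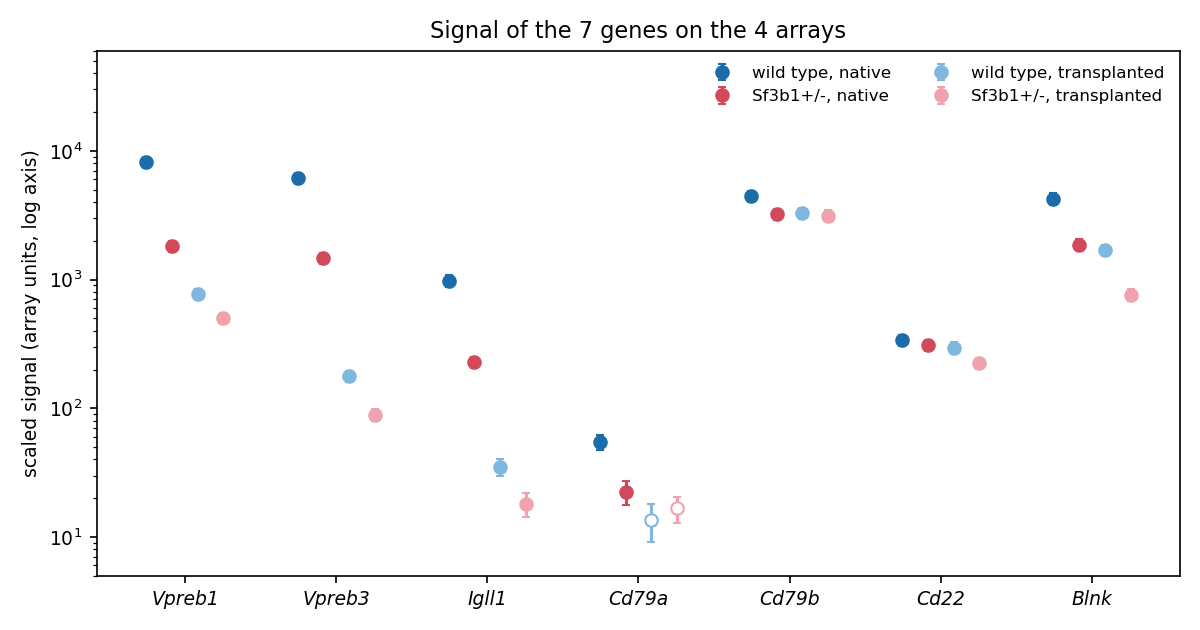
Scaled signal (array units, log axis) of the 7 genes on the 4 arrays, 1 point per array, with bars for the scanner software's error; hollow points are not well above background. Vpreb1, Vpreb3 and Igll1 step down from the wild-type native array to the Sf3b1+/- transplanted array, while the points of Cd79b and Cd22 lie close together; heights of different genes cannot be compared, since each probe has its own response.

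In native cells Sf3b1+/- signal was 22.3% of the wild-type signal for Vpreb1, 24.1% for Vpreb3 and 23.3% for Igll1. As log2 differences, Sf3b1+/- minus wild type, these were -2.17, -2.05 and -2.10, each ± 0.20 to 0.21 by the scanner error. Among 12797 genes with a value in this comparison they held places 4, 8 and 6 from the lowest. Of the 7 members 5 were at least 2-fold lower (Vpreb1, Vpreb3, Igll1, Cd79a and Blnk), against 0.914% of all genes, a contrast that went into choosing the members and from which nothing is read. The members' median difference was -1.28, and that of all genes 0.00. No member was 2-fold higher in any of the 4 comparisons, against 0.336% and 1.88% of all genes between genotypes in native and transplanted cells and 2% and 4.33% between settings in wild-type and Sf3b1+/- cells.

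In transplanted cells the genotype difference of the same genes was smaller. Vpreb1 stood at -0.61 ± 0.20, Vpreb3 at -1.0 ± 0.21 and Igll1 at -0.96 ± 0.37, which leaves 65.3% of the wild-type signal for Vpreb1 and 51.4% for Igll1. At least 2-fold lower were 2 of the 6 members with a value, Blnk and Vpreb3, the latter exactly at the limit, against 1.19% of all genes, with member and overall medians of -0.79 and 0.01. Vpreb3 fell short of it under 6 other scalings and sources of values, and no member was 2-fold lower with spike-in scaling, where Vpreb1 stood at 0.00. At least 1.5-fold lower in both settings were 4 of 6 members, the surrogate light chain genes and Blnk, against 1.42% of all genes. At least 2-fold lower in both were Vpreb3 and Blnk, against 0.204%. The genotype difference was less negative in transplanted than in native cells by 1.55 ± 0.29 for Vpreb1, 1.05 ± 0.30 for Vpreb3 and 1.14 ± 0.42 for Igll1. A change of at least 1 in that direction was seen in these 3 of 6 members and in 2.45% of all genes. The change contains the native difference that went into choosing these genes, so nothing is read from this count. With 1 array per group the change between settings was not tested.

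The steepest differences of the surrogate light chain genes were between transplanted and native cells. In wild-type cells Vpreb3 was 34.4-fold lower after transplantation, a log2 difference of -5.11 ± 0.21 and the lowest of 12943 genes. Igll1 was 27.8-fold lower (-4.80 ± 0.26, place 3) and Vpreb1 10.6-fold lower (-3.41 ± 0.20, place 5). In Sf3b1+/- cells the differences were 16.6-fold for Vpreb3 (-4.05 ± 0.21), again the lowest, now of 13009 genes, 12.6-fold for Igll1 (-3.65 ± 0.33, place 5) and 3.62-fold for Vpreb1 (-1.86 ± 0.20, place 42). At least 2-fold lower after transplantation were 5 of 7 members in wild type (1.36% of all genes) and 4 of 7 in Sf3b1+/- cells (1.57%). The 4 that were so in both genotypes were these 3 and Blnk, against 0.518% of all genes. The wild-type comparison shares its native array with the native genotype comparison, so the values are given side by side and not as support for each other. Igll1 was close to background after transplantation, and with normexp, another background correction, its differences were -3.38 in wild-type and -2.34 in Sf3b1+/- cells. Age, irradiation of the host and time after transplantation go with the setting and cannot be told apart.

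**Figure D2:**
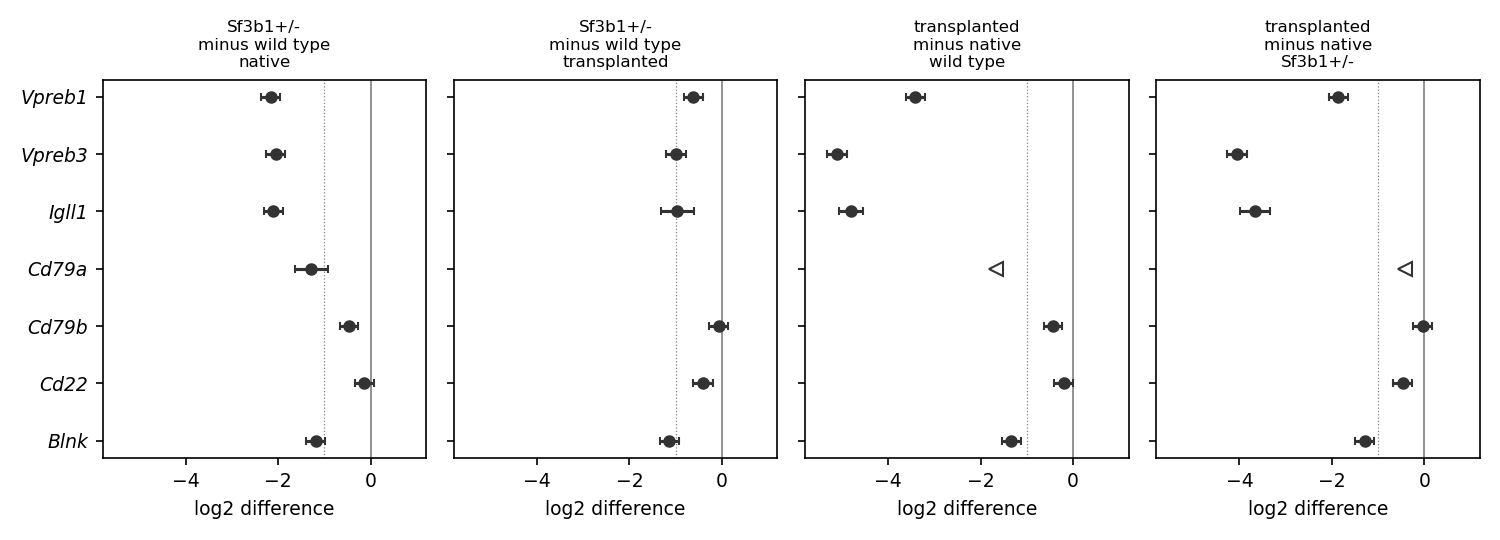
Log2 difference of each gene in the 4 comparisons; bars are the scanner error of the difference, hollow triangles are limits where 1 array was not well above background, and the dotted line marks a 2-fold lower signal. The 3 surrogate light chain genes lie furthest left in the transplanted-minus-native panels (-5.11 for Vpreb3 in wild type), and Cd79b and Cd22 lie within 0.47 of zero in all 4; Cd79a has no value in the transplanted genotype panel.

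Vpreb2, a near-identical copy of Vpreb1 elsewhere on chromosome 16 and not one of the 7 members, was read by a probe of its own (NM_016983). Its differences were -1.89 between genotypes in native cells, -0.38 in transplanted cells, -3.03 between transplanted and native wild-type cells and -1.52 in Sf3b1+/- cells. The probes of Vpreb1 and Vpreb2 may each read both transcripts, so their values are uncertain as measures of the single genes.

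**Figure D3:**
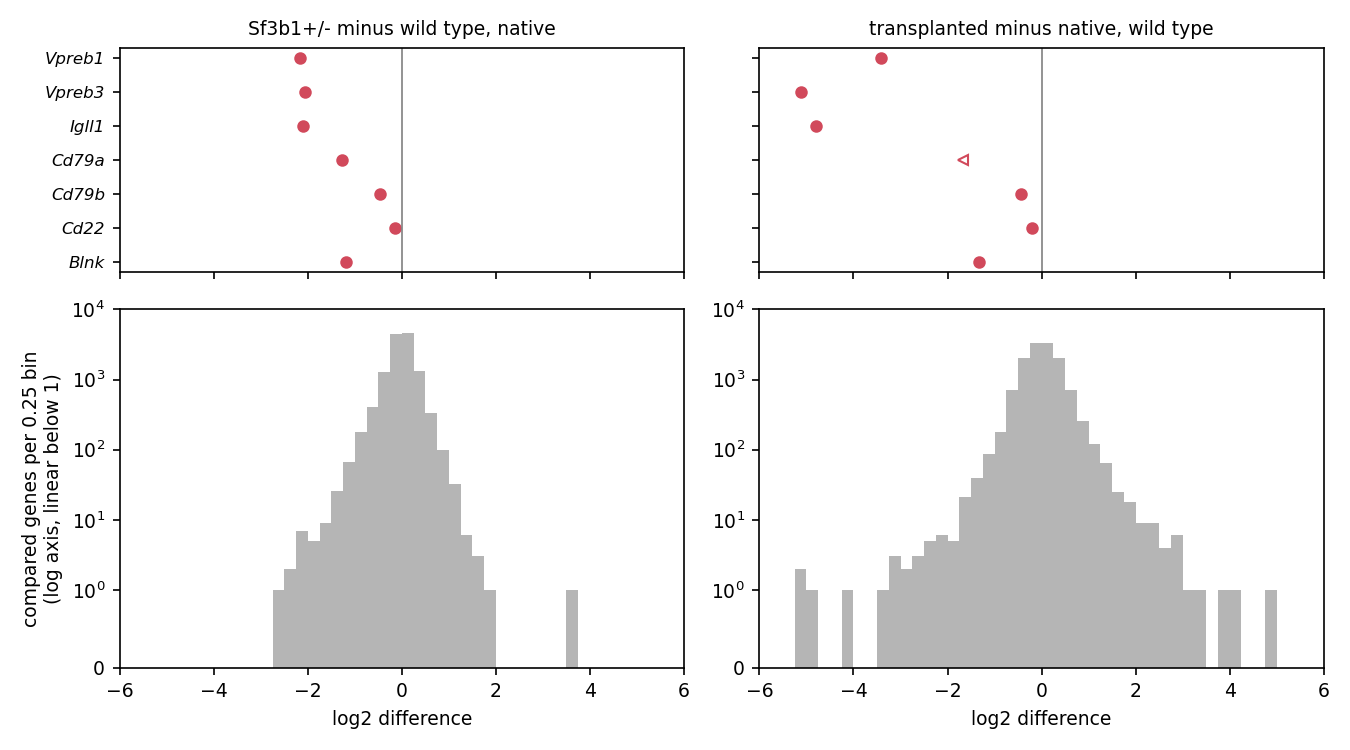
Lower panels: number of compared genes per bin of 0.25 in log2 difference (log axis, linear below 1) for the native genotype comparison and for transplanted minus native wild-type cells; upper panels: the 7 genes on the same axis, the triangle being a limit. Vpreb3, Igll1 and Vpreb1 sit in the lower tail of both distributions, and in the setting comparison Vpreb3 is the lowest gene of all.

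The receptor's signalling chains did not move alike. Cd79b (NM_008339), which encodes Ig-beta, was well above background on all arrays, with a signal of 4453 ± 445 in wild-type native, 3216 ± 322 in Sf3b1+/- native, 3299 ± 330 in wild-type transplanted and 3143 ± 314 in Sf3b1+/- transplanted cells. The wild-type native array was the highest, and the other 3 differed by less than the scanner error. The genotype difference was -0.47 ± 0.20 in native and -0.07 ± 0.20 in transplanted cells. Cd79a (NM_007655), which encodes Ig-alpha, was near background, with 54.5 ± 7.34 in wild-type native cells and 22.4 ± 4.81 in Sf3b1+/- native cells. On the transplanted arrays it was not well above background, at 13.5 ± 4.38 and 16.7 ± 3.82. Its native genotype difference was 2.43-fold lower, a log2 difference of -1.28 ± 0.37 that became -0.53 with normexp. In wild-type cells it was at least 3.18-fold lower after transplantation, a limit taken from the dimmest detected probes. In Sf3b1+/- cells the probe's own signals gave -0.42 ± 0.45, less than the scanner error, and no fold is read from it. Cd79a entered the comparison only because both native arrays detected it. With normexp the wild-type difference was -0.66, smaller than the limit given above. Between the genotypes in transplanted cells no fold can be given.

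Blnk (NM_008528) was lower by a similar factor in each comparison. Its signal was 4256 ± 426 in wild-type native, 1870 ± 187 in Sf3b1+/- native, 1685 ± 169 in wild-type transplanted and 764 ± 76.4 in Sf3b1+/- transplanted cells. The native Sf3b1+/- and the transplanted wild-type arrays differed by less than the scanner error, and the 2 others stood above and below them. The genotype difference was -1.19 ± 0.20 in native and -1.14 ± 0.20 in transplanted cells, and the setting difference -1.34 ± 0.20 in wild type and -1.29 ± 0.20 in Sf3b1+/-. Between settings the genotype difference changed by 0.05 ± 0.29, less than the scanner error.

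Cd22 (NM_001043317) varied least beside Cd79b. Its signal was 339 ± 34.4, 307 ± 31.1, 296 ± 29.9 and 223 ± 22.6 in the order used above, a range of 0.61 on the log2 scale over the 4 arrays, against 0.50 for Cd79b, 2.48 for Blnk, 4.02 for Vpreb1, 5.76 for Igll1 and 6.11 for Vpreb3. The genotype difference of Cd22 was -0.14 ± 0.21 in native and -0.41 ± 0.21 in transplanted cells.

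These differences are relative to the bulk of each array. When arrays were scaled to the added spike-in RNAs instead, the genes' overall median stood higher by 0.25 in Sf3b1+/- native cells and by 0.62 in Sf3b1+/- transplanted cells than in their wild-type partners, and by 0.47 and 0.85 in transplanted over native cells of wild type and Sf3b1+/-. On that scale the signs of Cd22 and Cd79b turned, to 0.10 for Cd22 in native cells, 0.21 and 0.55 for Cd22 and Cd79b in transplanted cells, 0.04 for Cd79b and 0.27 for Cd22 between settings in wild type, and 0.81 for Cd79b and 0.38 for Cd22 between settings in Sf3b1+/- cells. Measured differences shift by close to these amounts on that scale, so that signs of smaller ones turn, those of list medians included. Limits need not: that of Cd79a between settings in Sf3b1+/- cells, -0.42 before and within the scanner error, became 0. The setting differences of Vpreb3, Igll1 and Vpreb1 in wild type were then -4.63, -4.33 and -2.94, and in Sf3b1+/- cells -3.21, -2.81 and -1.01. The setting difference of Blnk in Sf3b1+/- cells was then -0.45. Between genotypes in transplanted cells, Vpreb3 stood at -0.38, Igll1 at -0.34 and Blnk at -0.52.

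The medians of the other receptor pathway genes lay near the bulk of the array, with a few genes well below it. Over 38 measured genes for kinases, co-receptors, adaptors, downstream factors and inhibitors, the median genotype difference was -0.05 in native cells, and -0.10 over 37 genes in transplanted cells. At least 2-fold lower were 3 genes in native cells, Pik3ap1 and Rel among them, against 0.914% of all genes, and 2 in transplanted cells (Zap70 and Pik3ap1), against 1.19%. No gene of these lists was 2-fold higher in either. Pik3ap1, an adaptor for phosphatidylinositol 3-kinase, was at least 2.08-fold lower in native cells and stood at -1.05 in transplanted cells.

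Among 6 measured receptor kinases the medians were -0.04 and -0.01. Syk, the kinase recruited by Ig-alpha and Ig-beta, stood at 0.10 and 0.04, Btk at 0.30 and 0.02, and Zap70, the T-cell relative of Syk, at -0.39 and -1.38. Downstream factors had medians of -0.19 and -0.36 over 8 genes, with Prkcb, the protein kinase C of this pathway, at -0.54 and 0.19 and Rasgrp3, an activator of Ras, at 0.32 and -0.92. The 11 inhibitors had medians of 0.08 and -0.08, with Cd5 at -0.41 and -0.59 and the phosphatase gene Ptpn6 at 0.27 and 0.29. Plcg2, the phospholipase that Blnk brings to the receptor, stood at 0.06 and 0.19.

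**Figure D4:**
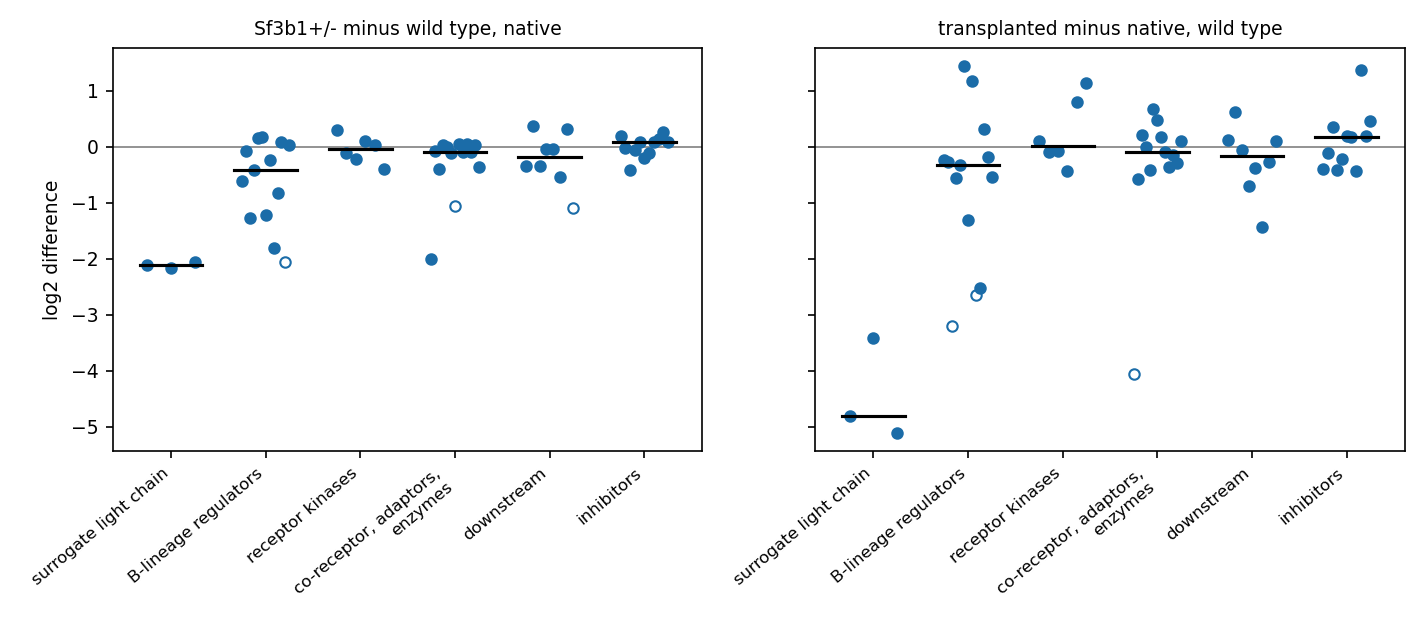
Log2 difference of each measured gene (points; hollow where 1 array was not well above background, a limit) and the median (bar) for the surrogate light chain, B-lineage regulators and 4 groups of receptor signalling genes, in native cells between genotypes and in wild type between settings. The medians of the signalling groups lie between -0.19 and 0.17, and that of the surrogate light chain at -2.10 and -4.80.

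Regulators of the B lineage were partly lower. Of 13 measured, 4 were at least 2-fold lower in native Sf3b1+/- cells, against 0.914% of all genes, with a list median of -0.42. They were Ebf1, the factor that opens the B-cell programme (-1.27), Lef1 (-1.80), Irf4 (-1.21) and Spib (at least 4.17-fold lower). In transplanted cells only Ikzf3 (-1.75) was 2-fold lower of 11 (1.19% of all genes), with a list median of -0.36 that was 0.26 with spike-in scaling. Pou2af1, a partner of the octamer-binding factors, stood at -0.82 and -0.65 between genotypes and at -2.52 and -2.35 between settings in wild-type and Sf3b1+/- cells. Ebf1 and Lef1 were not well above background on the transplanted arrays and were at least 9.15-fold and 6.23-fold lower in transplanted than in native wild-type cells. At least 2-fold lower between settings were 4 of 13 in wild type and 3 of 13 in Sf3b1+/- cells, against 1.36% and 1.57% of all genes. Both counts include Ebf1 and Lef1, which entered the comparison only through the native arrays, so nothing is read from these counts. Others were higher after transplantation, 2 of 13 by at least 2-fold in each genotype, against 2% and 4.33% of all genes. They were Ikzf3 (1.44) and Irf8 (1.17) in wild type, and Irf8 (1.28) and Spib (at least 2.87-fold) in Sf3b1+/- cells.

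The genes whose levels over the 4 arrays were most like the mean profile of Vpreb1, Vpreb3 and Igll1 included Gfra2, Ebf1, Lef1 and Lsmem1, at Euclidean distances of 0.63, 0.90, 1.07 and 1.25 among 13023 other genes. Of these, Gfra2, which encodes a receptor for neurturin, was the only one well above background on all 4 arrays. Its differences were -1.89 between genotypes in native cells, -0.22 in transplanted cells, and -5.06 and -3.39 between settings in wild-type and Sf3b1+/- cells. Ebf1, Lef1 and Lsmem1 were well above background on the native arrays only, through which they entered the comparison. Their likeness therefore rests in part on signal that was not well above background, and nothing is read from it. The profile nearest to that of Blnk was Mc3r (distance 0.36), followed by Slc18a1, Bst1, Bfsp2 and Irf4 (0.40 to 0.47). Bst1, which encodes the stromal and pre-B-cell antigen BP-3, stood at -1.55 and -0.67 between genotypes. The likeness is over 4 arrays and is a description.

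Markers of cells that the sorted fraction could hold were examined beside these values. Of 10 markers of B-cell precursors 9 were measured. Between genotypes in native cells 3 of them were at least 2-fold lower, Ebf1 and Bst1 among them, against 0.914% of all genes. Pax5, which fixes B-cell identity, was well above background on 0 of the 4 arrays. The summed signal of the 9 was 62008 units in native wild-type cells, 58768 in native Sf3b1+/- cells, 56721 in transplanted wild-type cells and 33616 in transplanted Sf3b1+/- cells. The probes of Dntt, Cd24a and Ly6d dominate that sum. Ly6d gave 1552, 1574, 4034 and 2087 units in the same order. The remaining 6 markers, a split made after the values were seen, summed to 945, 531, 431 and 207. On each transplanted array 4 of the 6 were well above background. Not all fell in this order: Il7r stood at 0.62 between settings in wild type, Rag2 at 0.21 between genotypes in native cells. Between settings 4 of the 9 were at least 2-fold lower in wild type (1.36% of all genes) and 5 in Sf3b1+/- cells (1.57%). These counts include limits, such as that of Ebf1, which entered the comparison only through the native arrays. Nothing is read from these counts. The list medians were -0.60 and -1.08, and Ly6d was 2.60-fold higher in wild type. Between genotypes in transplanted cells the median was -0.67 over 7 markers, of which Il7r, the interleukin-7 receptor chain, was 2.51-fold lower. Rag1, of the recombinase, stood at -0.32 and -0.44 between genotypes and at -2.02 and -2.14 between settings.

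Of 8 markers of mature B cells 5 were measured. None was at least 2-fold lower among those with a value, 3 between genotypes in native cells, 5 in transplanted cells, and 4 and 5 between settings in wild-type and Sf3b1+/- cells. Cxcr5, a chemokine receptor of follicular B cells, stood just short of that limit at -0.999 between genotypes in transplanted cells. It was at least 2.16-fold higher after transplantation in wild type. Cxcr5 entered the comparison only through the transplanted arrays, so nothing is read from that fold. Ms4a1 (CD20) was well above background on 0 of the 4 arrays, and the summed signal of the 5 was 2173, 2240, 1844 and 1770 units in the same order. That sum came mostly from Cd37, and 2, 3, 4 and 5 of the markers were well above background on these arrays. The 5 measured plasma cell markers summed to 24228, 26699, 22727 and 18716 units, mostly from Jchain and Xbp1, which moved in opposite directions between settings (-0.81 and 0.64 in wild type). The median of the plasma cell list was -0.08 between genotypes in native and -0.65 in transplanted cells, and -0.69 and -1.32 between settings in wild-type and Sf3b1+/- cells. In the last of these 3 of 5 were at least 2-fold lower, against 1.57% of all genes: Tnfrsf17 (BCMA) 6.91-fold, Jchain 3.30-fold and Prdm1 2.50-fold. The 7 measured markers of plasmacytoid dendritic cells summed to 113426, 100319, 136547 and 96507 units, mostly from Siglech. Their medians were -0.14 and -0.36 between genotypes and 0.35 and 0.27 between settings. T and NK cell markers, 7 measured, had a median genotype difference of -0.48 in native and -0.97 in transplanted cells and neutrophil markers, 6 measured, of -0.07 and -0.59. Erythroid markers, 4 measured, had medians of 0.62 and 0.39 and megakaryocyte markers, also 4, of 0.91 and 1.23. The part of these cells in the differences of the 7 genes was not tested.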

How the data were processed

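The 4 groups had 1 single-colour Agilent array each. Per the file headers, the software was Feature Extraction 10.7.1.1 (protocol GE1_107_Sep09, array design 028005, positions on mm9), and the values are spot intensity after background subtraction and detrending within the array. The authors' deposited series matrix holds ratio values, the processed signal divided by 1 constant per array (r = 1.00 on the log2 scale with the scanner values), with column medians of 0.0810, 0.0745, 0.0816 and 0.0747. Their 75th percentile lies near 1, they are not centred, and a larger value is more signal. The flags for well above background and outliers, which are no measured levels, are the scanner software's, per the file headers.

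Outlier spots were left out, spots of a probe averaged as log2, and each array shifted by its 75th percentile over probes well above background on all 4 arrays, 1652, 1940, 1823 and 2686 units. Transcripts were named through RefSeq (GRCm38.p6). The probe with the highest mean signal stood for its gene, and genes well above background on at least 2 arrays (13030) were compared. A gene not well above background on 1 array of a comparison was set to its limit, computed with the dimmest detected signal of that array or its own. Folds given as "at least" are such limits. They make no allowance for the scanner error and can be smaller under another background correction, as for Cd79a. No test was run, because the members were chosen from differences between these arrays and each group has 1 array, whose number limits the precision. The members, gene lists and motifs were chosen with earlier results of these data, and for the motifs the sequences, known. Genes named from the lists are those with the largest difference in native or transplanted cells, those that are members or at least 2-fold apart, and some pathway partners (Syk, Plcg2) and single cell type markers (such as Rag1, Ly6d and Cxcr5) added after the values were seen. The 5 nearest profiles were sought for each reference profile. The values of 1 listed gene are not reported here. All arrays lie on 1 slide, so place on the slide and group cannot be told apart. The calculation was tested on simulated data. Tools were R 4.3.3 with limma 3.58.1, and Python 3.11.15 with pandas 2.3.3. Alternatives changed the scaling, normalization, background correction (normexp with offset 50 on the median signal, in place of a mean signal), filter, probe choice and source of values.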

Additional observations from a re-analysis of the deposited data

How the results depend on the processing

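The members' median differences between genotypes, in native and in transplanted cells, stayed negative under all 10 alternatives. The count of members at least 2-fold lower in transplanted Sf3b1+/- cells was 2. It was 1 with the 75th percentile over all probes, the median of detected probes, quantile normalization, cyclic loess, normexp and the authors' deposited series matrix, since Vpreb3 lay exactly at the limit, and 0 with spike-in scaling. With spike-in scaling the members' median difference was -1.03 in native and -0.17 in transplanted cells, and over genes well above background on all 4 arrays, which leaves out Cd79a, the native median was -1.62. The counts in native cells and between settings stayed within 1.5 times the value reported under every alternative. Of the values of single genes 236 moved by less than the scanner error and 31 by more, the latter all under normexp or spike-in scaling. No value of at least 2-fold reversed. Normexp narrowed the differences of the genes near background, Igll1 and Cd79a, most clearly. No paired analysis was possible because each group holds 1 array and the groups share a single replicate number. Leaving out an array would leave a group empty. Signal close to background limits Cd79a on all arrays and Igll1 after transplantation.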
